A study of Mus musculus with 80 samples.

Results

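The depot difference between brown adipose tissue (BAT) and inguinal white adipose tissue (iWAT) was examined in wild-type (WT) mice by comparing the 5 BAT libraries labelled WT with the 5 iWAT libraries labelled WT. These 10 libraries were chosen by their tissue and genotype labels from the 80 RNA-seq libraries of the series, which cover 4 tissues (the fat depots, liver and muscle) of 4 genotypes: WT mice, mice without FGF21 (FGF21 KO), mice without UCP1 (UCP1 KO) and mice without both (dKO). All mice were male and on a C57BL/6J background, were bred and weaned at 30 °C, and were moved at 10 to 12 weeks of age to room temperature with a high-fat diet (HFD) for 3 weeks. The 5 BAT and 5 iWAT libraries of FGF21 KO mice, which are homozygous for a deletion of Fgf21 in the whole body and had the same housing and diet, served as a repeat of the depot comparison in libraries that shared no sample with WT. The 15 iWAT libraries of the 3 other genotypes were used to find genes that vary with lymph node or muscle markers. The labels gave no animal numbers, so BAT and iWAT of a mouse could not be matched, and p-values measure the spread between these libraries.

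Brown adipocytes burn fatty acids and glucose in mitochondria whose inner membrane carries UCP1, a proton channel that turns the proton gradient into heat when noradrenaline reaches the cell. White adipocytes store triglyceride in a large droplet and secrete hormones such as leptin. The depots also arise from different embryonic regions, the brown fat between the shoulder blades from somites of the upper trunk and the inguinal pad from mesenchyme near the hind limb. Under cold exposure iWAT can form beige adipocytes that express Ucp1. The inguinal pad holds a lymph node and lies over muscle.

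Depth, as reads counted on genes, was 30298956 to 37339630 per BAT library and 36788474 to 44683908 per iWAT library. The 10 most abundant genes of a library took 30.5% to 32.4% of reads in BAT and 12.4% to 19.3% in iWAT. No 2 libraries had identical counts. The first principal component held 76.2% of the variance and separated the depots, and the second held 17.8% and separated iWAT libraries 4 and 5 from the other 3 iWAT libraries. A lymph node score, the mean log2(CPM + 0.1) of 20 B cell, T cell and follicle genes, was between -1.06 and -0.64 in BAT, between 0.06 and 1.07 in iWAT 1 to 3, 5.83 in iWAT 4 and 6.25 in iWAT 5. CPM is counts per 1000000 reads after scaling by TMM factors, which correct for a few genes taking a large share of a library. A skeletal muscle score of 20 contractile genes was 1.11 to 2.83 in BAT, 0.37 to 1.46 in iWAT 1 to 3, 4.74 in iWAT 4 and 8.32 in iWAT 5. Results that rest on iWAT 4 and 5 are therefore given with and without these libraries, and the part of lymph node and muscle in any single gene's difference was not tested unless stated.

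**Figure D1:**
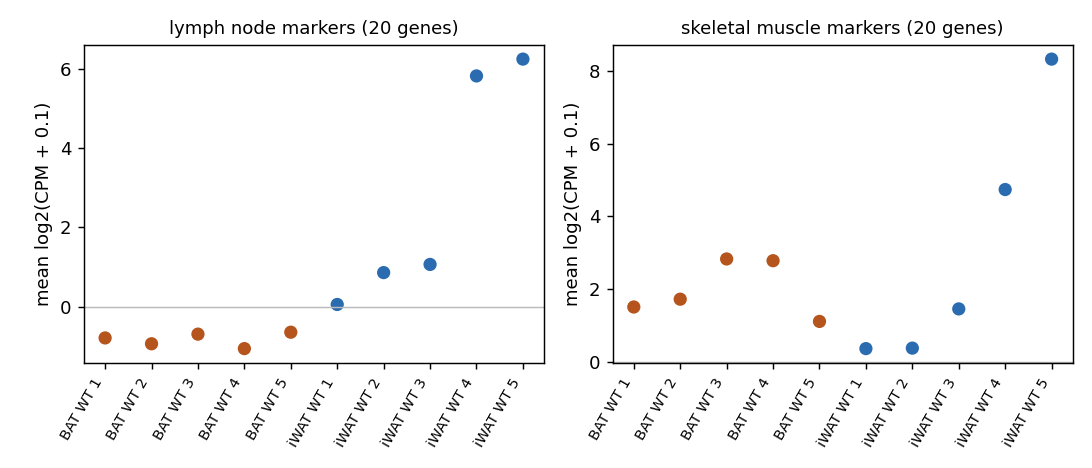
Lymph node score (left) and skeletal muscle score (right), each the mean log2(CPM + 0.1) of 20 marker genes, for each of the 5 BAT WT (brown points) and 5 iWAT WT (blue points) libraries. iWAT 4 and 5 sit at 5.83 and 6.25 on the left, above the other 8 libraries, and at 4.74 and 8.32 on the right.

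Of 16171 genes tested, 9204 (56.9%) differed between BAT and iWAT at an adjusted p under 0.01 in edgeR's quasi-likelihood test with Benjamini-Hochberg adjustment. A total of 4426 genes (27.4%) were higher in BAT and 4778 (29.5%) in iWAT. At least a 2-fold difference was seen for 2099 genes (13.0%) higher in BAT and 3470 (21.5%) higher in iWAT. The libraries of the depots did not overlap for 9218 genes (57.0%). A depot difference was thus the common state of a gene in these tissues, and the counts of each gene group below are read against those shares and against the median log2 fold change of all tested genes, -0.09. Log2 fold changes are BAT over iWAT, so positive values are higher in BAT. The calls depended on the scaling, and the reason was not tested. With library totals in place of TMM factors, 11817 genes were called and 14.4% of these were higher in BAT, against 48.1% with the factors. The median of all genes moved by -0.74 to -0.83. Positive log2 fold changes smaller than this shift can thus turn negative with the scaling. In bulk tissue, fewer cells of a type and less RNA per cell cannot be told apart.

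Of all the gene lists, the thermogenic core had the highest median toward BAT. Of 25 tested genes of the thermogenic core, 23 were higher in BAT, none was higher in iWAT and 2 were not called, with a median log2 fold change of 5.05 (5.14 without iWAT 4 and 5). Ucp1 had 7073, 7745, 8989.5, 3825 and 6980.4 CPM in BAT 1 to 5 and 3.48, 3.30, 7.22, 12.9 and 2.05 CPM in iWAT 1 to 5. The lowest BAT library was thus far above the highest iWAT library, and the log2 fold change was 10.22 ± 0.66 (SE, adjusted p = 3.4e-07). Cidea, a lipid droplet protein of thermogenic adipocytes, had 2419.5, 2440.1, 2547, 2514 and 2733 CPM in BAT and 6.99, 14.8, 9.09, 35.1 and 7.48 CPM in iWAT, a log2 fold change of 7.43 ± 0.54. It was nearly constant across the BAT libraries, whereas iWAT 4 stood above the other iWAT libraries, and the difference was 8.04 without it. Dio2, the deiodinase that makes active thyroid hormone inside the cell, varied among the BAT libraries, with 32.6, 115, 246, 52.3 and 262 CPM against 0.382, 0.619, 0.576, 1.75 and 1.15 CPM in iWAT, and had a log2 fold change of 7.28 ± 0.77 (8.04 without iWAT 4 and 5). With voom and 1 variance per depot its call was lost (7.01, adjusted p = 0.022). Elovl3, a fatty acid elongase induced in active brown fat, differed by 7.15, and Slc27a2, an acyl-CoA synthetase for very long chains, by 8.67. Otop1 (5.61) and Kcnk3 (3.93), a potassium channel of brown adipocytes, were also higher in BAT. Bmp8b, which encodes a secreted factor that raises the response to noradrenaline, held at most 3 reads in any iWAT library and was at least 16.7-fold higher in BAT. The smallest called differences were those of the nuclear receptor Pparg (1.12 ± 0.25), the thioesterase Them4 (1.28 ± 0.15) and the transcription factor Prdm16 (1.33 ± 0.21). Prdm16 had 26.7 to 45.5 CPM in BAT and 9.23 to 18.9 CPM in iWAT. With library totals Pparg (0.40, adjusted p = 0.11) and Prdm16 (0.60, adjusted p = 0.016) were not called. The 2 genes that were not called were Adrb3, the beta3-adrenergic receptor, at -0.05, and the fatty acid transporter Slc27a1 at -0.46. With library totals Slc27a1 was called higher in iWAT (-1.20, adjusted p = 4.8e-04), and 21 genes of the core were higher in BAT.

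**Figure D2:**
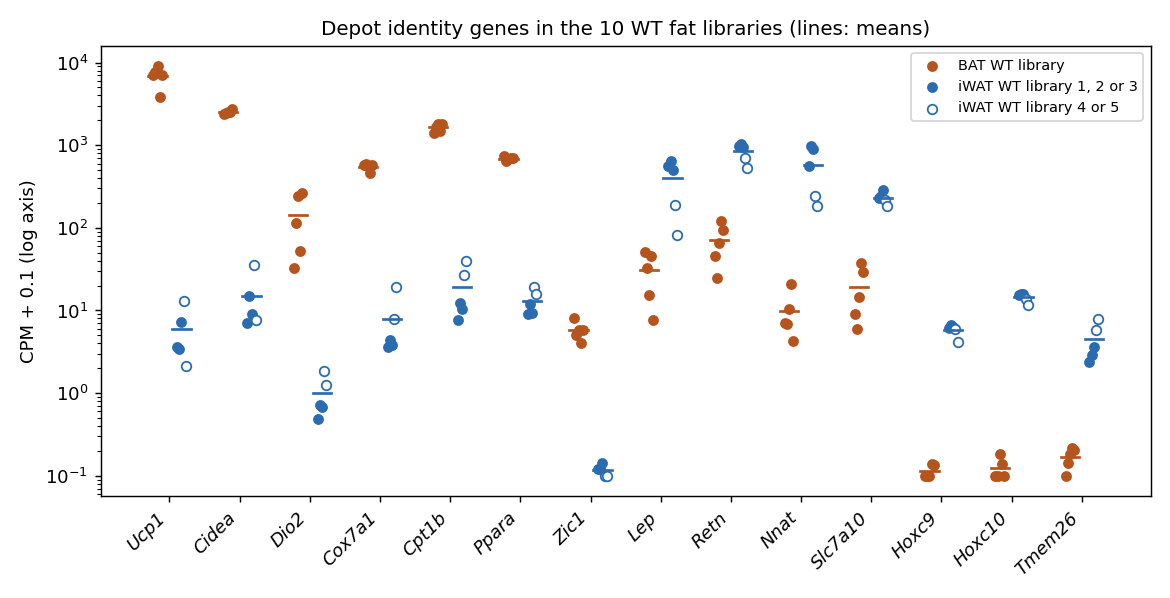
CPM + 0.1 on a log axis of 14 genes in each of the 5 BAT WT libraries (brown), iWAT WT libraries 1 to 3 (filled blue) and iWAT WT libraries 4 and 5 (open blue), with lines at the group means. The depots do not overlap for any of these genes, the first 7 being higher in BAT and the other 7 higher in iWAT, and Ucp1 ranges from 3825 to 8989.5 CPM in BAT and from 2.05 to 12.9 CPM in iWAT.

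Markers of the brown depot's origin gave a mixed picture. Of 20 listed developmental markers, 14 passed the low-count filter, 8 were higher in BAT, 2 were higher in iWAT and 4 were not called, with a median of 1.08. With library totals the balance of calls turned, as 5 were higher in BAT and 6 in iWAT, with a median of 0.35. Zic1, a zinc finger factor of the dorsal somite, had 7.96, 4.96, 5.74, 3.92 and 5.65 CPM in BAT and 0.0212, 0.0221, 0.0411, 0 and 0 CPM in iWAT. It was at least 94.8-fold higher in BAT, a bound set by 3 counts per iWAT library. Zic4, the neighbouring gene of the same family, was at least 24.8-fold higher by the same bound, and Mpzl2 differed by 4.92. Ebf2, which helps to specify brown adipocytes, differed less, with 82.1 to 141 CPM in BAT and 26.6 to 61.3 CPM in iWAT and a log2 fold change of 1.13 ± 0.24, a call that was lost with library totals (0.42, adjusted p = 0.087). Lhx8, often used as a brown marker, had 2.95 to 4.65 CPM in BAT and 2.63 to 4.73 CPM in iWAT, and the depots overlapped (-0.10, adjusted p = 0.65; -0.83 and called with library totals). Meox2 was also not called (-0.33, adjusted p = 0.094), although without iWAT 4 and 5 it was higher in iWAT (-0.56, adjusted p = 1.4e-04), as it was without iWAT 5 alone (-0.46). Epsti1 (-4.69, and -2.85 without iWAT 4 and 5) and Prex1 (-2.17, and -1.20), which are on the list of brown markers, were higher in iWAT, and both rise and fall with the lymph node score across the other iWAT libraries. Pax3, Pax7, Myf5, Sim1, Zic2 and Barx1 did not pass the low-count filter in these adult tissues.

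Genes listed as beige adipocyte markers were split between the depots, 5 of 17 being higher in BAT and 9 in iWAT, with a median of -1.56. P2rx5, a purinergic receptor on the adipocyte surface, had 129 to 159 CPM in BAT and 3.43 to 5.57 CPM in iWAT (5.07 ± 0.16). The amino acid transporter Slc36a2 (2.14) was also higher in BAT. Tmem26, a surface marker of beige cells, had 0, 0.0417, 0.0832, 0.116 and 0.104 CPM in BAT and 2.29, 2.83, 3.52, 5.77 and 7.71 CPM in iWAT. Its iWAT level was at least 38.2-fold higher (24.8-fold without iWAT 4 and 5), and all 5 iWAT libraries exceeded all BAT libraries. Tbx1, a developmental T-box factor, was at least 16.8-fold higher in iWAT (10.4-fold without iWAT 4 and 5), and Shox2 (-3.01) and Ear2 (-4.10) were higher in iWAT as well.

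White adipocyte markers were the mirror of the thermogenic core. Of 22 tested, 19 were higher in iWAT, 1 was higher in BAT and 2 were not called, with a median of -3.53 (-3.80 without iWAT 4 and 5). This list shares Hoxc8, Hoxc9 and Hoxc10 with the Hox genes, Trem2 with the macrophage markers and Dpt with the progenitor markers. Lep, Retn, Agt, Nnat, Sfrp5 and Cfd are also counted among the secreted factors, so these groups are not independent. Other lists share members as well, such as Cpt1b in the thermogenic core and in fatty acid oxidation. Lep, which encodes leptin, had 51.2, 32.3, 15.5, 45.6 and 7.62 CPM in BAT and 561, 646, 500.0, 191 and 82.3 CPM in iWAT, a log2 fold change of -3.70 ± 0.68. iWAT 4 and 5 were the lowest iWAT libraries, and the difference was -4.25 without them. Retn, which encodes the adipokine resistin, had 24.9 to 121 CPM in BAT and 526 to 1047 CPM in iWAT (-3.58 ± 0.42). Nnat, an imprinted gene for a small membrane proteolipid, differed more, with 7.05, 6.84, 10.4, 20.5 and 4.12 CPM in BAT and 566, 974, 903, 240.2 and 186 CPM in iWAT (-5.88 ± 0.66). Mest, another imprinted gene linked to fat pad expansion, was also higher in iWAT (-5.90, and -6.62 without iWAT 4 and 5). Slc7a10 (ASC-1), an amino acid transporter and surface marker of white adipocytes, differed by -3.59 ± 0.48, and Agt, which encodes angiotensinogen, by -3.62 ± 0.57 (-4.22 without BAT 4). The exception was Ntrk3, a neurotrophin receptor, which was higher in BAT (5.08).

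Hox genes, which record position along the body axis, differed in both directions. Of 28 tested Hox genes, 6 were higher in BAT and 14 in iWAT. Without iWAT 4 and 5 the counts were 4 and 18, and with library totals 2 and 19. The 6 were Hoxa2, Hoxa4, Hoxa5, Hoxb4, Hoxc4 and Hoxc5, of paralogous groups 2, 4 and 5, while Hoxd3 (-1.59) and Hoxd4 (-1.47) of groups 3 and 4 were higher in iWAT. Hoxa5 had 27.0 to 32.9 CPM in BAT and 2.33 to 4.59 CPM in iWAT (3.00 ± 0.18), and Hoxa4 differed by 3.82. The 4 genes with the largest differences toward iWAT belonged to groups 9 and 10. Hoxc10 had 0, 0, 0.0832, 0.0388 and 0 CPM in BAT and 15.4, 15.6, 15.9, 13.6 and 11.4 CPM in iWAT, which is at least 124-fold higher in iWAT. Hoxa10 was at least 69.9-fold higher and Hoxc9 at least 49.5-fold higher in iWAT, where these genes were present in every library and BAT libraries held at most 2 reads. Hoxc8 (-3.30 ± 0.23) and Hoxa9 (-3.27) were present in both depots and higher in iWAT. Hoxa2 (0.92) and Hoxb4 (0.62) were close to the threshold, with an adjusted p of 0.010 and 0.024 without BAT 5, and Hoxb4 turned to -0.10 with library totals, where Hoxa2, Hoxc4 and Hoxc5 were not called. Neighbouring Hox genes overlap in the genome, and whether reads were counted by strand is not stated, so adjacent genes may share reads. Patterning factors of the limb and trunk outside the Hox clusters were mostly higher in iWAT, 15 of 25 against 2 higher in BAT, with a median of -0.95. Emx2 was at least 35.5-fold higher in iWAT, and Tbx15 (-2.40 ± 0.23) and Prrx1 (-2.24) were higher there. Tbx5, a factor of the forelimb field, was higher in BAT (1.88).

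Nuclear genes of the mitochondrial respiratory chain were higher in BAT. All 37 nuclear-encoded complex I subunits were higher in BAT, with log2 fold changes from 1.70 (Ndufa2) to 3.45 (Ndufv1) and a median of 2.59. All 14 genes of complexes II and III with cytochrome c were higher in BAT, with a median of 3.09, and all 22 genes listed for the tricarboxylic acid cycle and the pyruvate dehydrogenase complex that feeds it, with a median of 3.19. The genes of complex II, succinate dehydrogenase, are in both of these lists. These 3 groups remained wholly higher in BAT with library totals in place of factors, at medians of 1.85, 2.35 and 2.45. Uqcrc1, a core subunit of complex III, had 1755, 1887, 1744, 1773 and 1767 CPM in BAT and 169, 186, 175, 188 and 168 CPM in iWAT (3.33 ± 0.07). The spread within each depot was small against this gap. Cycs, cytochrome c, differed by 3.39 ± 0.08, Sdhb of complex II by 3.09 ± 0.07 and Ndufs1 of complex I by 2.96 ± 0.08. In the cycle the smallest difference was in Suclg2 (1.81), the GTP-forming subunit of succinyl-CoA ligase. Cs, citrate synthase, had 3697 to 4053 CPM in BAT and 430.0 to 657 CPM in iWAT (2.76 ± 0.12). The 47 tested proteins of the large mitochondrial ribosomal subunit (Mrpl genes) were all higher in BAT but by less, with a median of 1.5, and 39 of them were called higher in BAT with library totals.

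Complex IV and ATP synthase held exceptions. In complex IV, 14 of 16 genes were higher in BAT, led by Cox7a1 (6.16 ± 0.54, and 7.13 without iWAT 4 and 5) and Cox8b (4.82 ± 0.23), which are the heart and muscle forms of their subunits, and Cox5b followed at 2.96 ± 0.09. Cox4i2 was not called (0.39, adjusted p = 0.064). Cox6a2, the muscle form of subunit 6a, was at 0.0346 to 0.541 CPM in BAT and reached 26.1 CPM in iWAT 5, the library with the highest muscle score. It was not called by edgeR (-4.24) and was called higher in iWAT by DESeq2 (-4.23, adjusted p = 0.0054). Without iWAT 5 the edgeR difference was -1.31. Of 17 ATP synthase genes, 14 were higher in BAT, 2 were higher in iWAT and 1 was not called, with a median of 2.25; 12 were higher in BAT and 4 in iWAT with library totals. Atp5b, the catalytic beta subunit, had 8456 to 9308 CPM in BAT and 998 to 1441 CPM in iWAT (2.85 ± 0.11). The 3 genes for subunit c, which forms the rotating ring, went different ways. Atp5g1 had 5.53, 4.92, 6.53, 6.95 and 4.47 CPM in BAT and 29.6, 26.9, 26.9, 26.9 and 49.8 CPM in iWAT, and was thus higher in iWAT in every library (-2.50 ± 0.21). Atp5g2 was higher in BAT (1.47 ± 0.06) and Atp5g3 was not called (-0.13, adjusted p = 0.21). Without iWAT 4 and 5, Atp5g3 was called higher in iWAT (-0.27, adjusted p = 0.0035). Atpif1, which encodes the inhibitor of ATP hydrolysis by the synthase, was higher in iWAT (-0.96 ± 0.08). The subunit c genes encode the same mature protein and have processed copies elsewhere in the genome, so their counts are uncertain. No gene encoded by the mitochondrial genome was on the lists for the respiratory chain and ATP synthase. Rows of such genes, where present in the counts, were not removed from the tests or the scaling.

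The promoters of these genes were searched for 4 short motifs of transcription factors. RefSeq windows of 300 bases (250 before to 50 after the start, GRCm38.p6) were matched by symbol for 11423 of the 16171 tested genes and for 84 tested genes of the lists for the respiratory chain, ATP synthase and tricarboxylic acid cycle. The palindromic site of the nuclear respiratory factor NRF1, whose 10 letters stand in capitals in all but the first stretch below, was in 5 of these 84 windows (5.95%), in 2.07% of windows of tested genes and in 1.07% of all 27025 symbols with a window. It was in 2.57% of windows of genes at least 2-fold higher in BAT and in 0.738% of those at least 2-fold higher in iWAT. The palindrome TGACGTCA, the full cAMP response element, was in 7 of the 84 windows (8.33%), against 3.34% of tested genes. The site AAGGTCA of estrogen-related receptors, searched on both strands, was in 10 of the 84 (11.9%) and 4.16%, and the ETS core CCGGAAG, also on both strands, was in 19 (22.6%) and 17.9%. No motif contains another. The stretches below run from 30 bases before the motif to 10 bases after it, on the strand of the gene and within the bases before the start, with the motif in capitals. The first shows the cAMP response element of Dio2, the next 5 show the NRF1 site in genes higher in BAT, and the last 2 show the same letters before genes higher in iWAT.
Dio2, chr12:90739116-90739163, minus strand, motif starting 95 bases before the start: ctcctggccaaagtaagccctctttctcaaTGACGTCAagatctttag
Ppara, chr15:85735715-85735764, plus strand, 31 bases before: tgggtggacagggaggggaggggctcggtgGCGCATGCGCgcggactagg
Cox6a1, chr5:115349101-115349150, minus strand, 162 bases before: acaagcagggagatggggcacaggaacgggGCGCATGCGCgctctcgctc
Ndufa11, chr17:56717672-56717721, plus strand, 60 bases before: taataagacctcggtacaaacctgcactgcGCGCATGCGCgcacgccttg
Atp5g2, chr15:102671070-102671119, minus strand, 42 bases before: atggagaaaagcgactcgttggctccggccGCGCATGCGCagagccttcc
Atp5k, chr5:108434430-108434479, minus strand, 50 bases before: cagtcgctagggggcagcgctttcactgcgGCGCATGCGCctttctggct
Nnat, chr2:157560022-157560071, plus strand, 26 bases before: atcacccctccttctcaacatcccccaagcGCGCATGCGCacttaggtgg
Slc7a10, chr7:35186330-35186379, plus strand, 25 bases before: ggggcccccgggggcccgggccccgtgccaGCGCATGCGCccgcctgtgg

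Genes with the NRF1 motif were found in both directions. Ppara (5.74), Cox6a1 (2.89), Ndufa11 (2.16), Atp5g2 (1.47) and Atp5k (2.66) carry it and were higher in BAT. Nnat (-5.88) and Slc7a10 (-3.59) carry it near their starts too and were higher in iWAT. A match is a description of these letters only.

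Fatty acid oxidation differed in amount and in the form of its gatekeeper. Of 29 genes, 27 were higher in BAT and 2 in iWAT, with a median of 2.85. Carnitine palmitoyltransferase 1, the entry step of long-chain fatty acids into mitochondria, was represented by different genes. Cpt1b, the muscle form, had 1419, 1659, 1809, 1499.5 and 1808 CPM in BAT and 7.61, 12.2, 10.4, 26.9 and 39.1 CPM in iWAT (6.41 ± 0.50, and 7.32 without iWAT 4 and 5). Cpt1a, the liver form, had 29.4, 30.7, 33.0, 31.8 and 35.7 CPM in BAT and 107, 87.9, 98.2, 79.2 and 88.6 CPM in iWAT (-1.52 ± 0.09). The depots did not overlap for either gene and the directions were opposite. Acadvl, the very long-chain acyl-CoA dehydrogenase, was higher in BAT by 4.13 ± 0.11, Hadha of the trifunctional protein by 3.77 ± 0.10, and the carnitine carrier Slc25a20 by 3.77 ± 0.09. The thioesterases Acot11 (7.47) and Acot2 (3.21 ± 0.09) were also higher in BAT. In peroxisomes, 21 of 23 genes were higher in BAT but with a smaller median, 1.12. Ehhadh, a bifunctional enzyme, differed by 2.28 ± 0.25 and Pex11a, which promotes peroxisome division, by 1.23 ± 0.13. With library totals in place of TMM factors, 11 of the 23 genes were called higher in BAT. Abcd2, a peroxisomal acyl-CoA transporter, was higher in iWAT (-2.38).

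The choice of related genes was compared within each library as the log2 ratio of 15 gene pairs, with an exact two-sided permutation test between depots whose smallest possible p is 0.00794 and p-values adjusted over the 15 pairs. The ratio is not per length, so its difference between depots is given and not its level. For 11 pairs the depots did not overlap, each with an adjusted p of 0.0108. Cpt1b over Cpt1a was higher in BAT by 8.18 and Cidea over Cidec, lipid droplet proteins of which Cidec serves the white droplet, by 8.32. Fabp3 over Fabp4, the muscle and adipocyte fatty acid-binding proteins, was higher in BAT by 7.36 and by 9.14 without iWAT 4 and 5. Fabp3 had 0.721, 0.642, 1.25, 4.09 and 39.0 CPM in iWAT 1 to 5 and 435 to 691 CPM in BAT. Cox7a1 over Cox7a2 was higher in BAT by 4.15 and Cox8b over Cox8a by 2.67. Ldhb over Ldha, of which the B form favours lactate use, was higher by 2.61, Elovl3 over Elovl6 by 2.51 (1.15 with a pseudocount of 1), Sucla2 over Suclg2 by 2.27 and Hk2 over Hk1 by 1.51. The ratio of Cox4i2 to Cox4i1 was lower in BAT, with a difference of -2.05. Cox4i1 was higher in BAT (2.45 ± 0.08) and Cox4i2 was not called. Cox6a2 over Cox6a1 was also lower in BAT, with a difference of -4.27, and of -1.99 without iWAT 4 and 5. With a pseudocount of 1 the latter was -2.55. Cox6a1 was higher in BAT, and Cox6a2 was near the floor there, with at most 13 reads in any BAT library. Slc25a4 over Slc25a5 (adjusted p = 0.37), Scd1 over Scd2 (adjusted p = 0.93), Atp2a1 over Atp2a2 (adjusted p = 0.38) and Ppargc1a over Ppargc1b (adjusted p = 0.060) overlapped between the depots. For Ppargc1a over Ppargc1b the difference was -1.36, and -1.83 without iWAT 4 and 5, where the depots did not overlap.

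**Figure D3:**
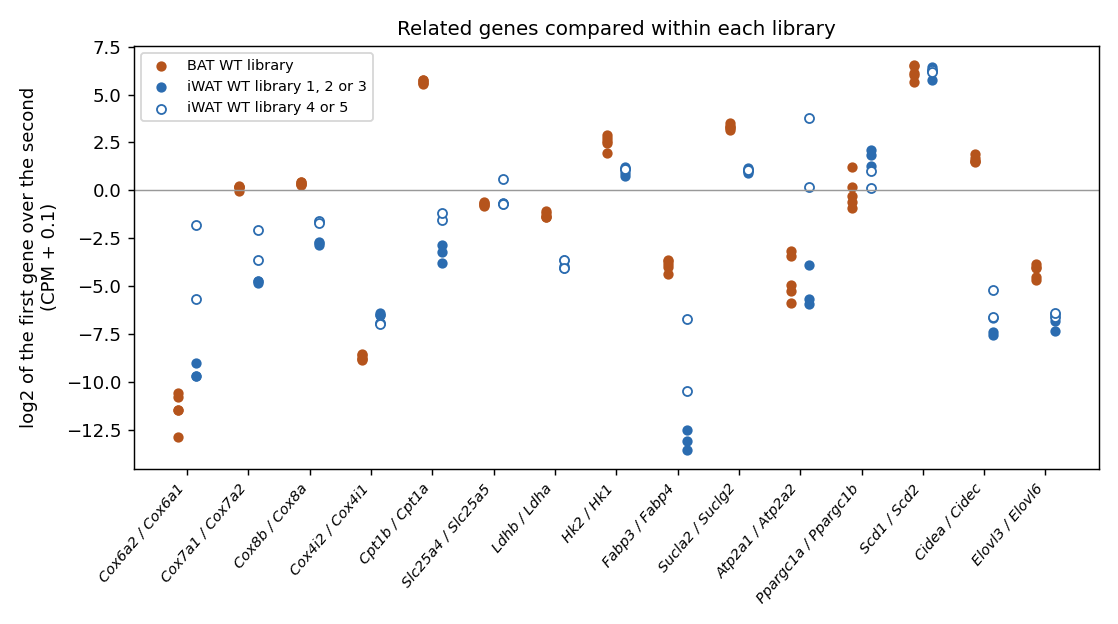
Log2 of the first gene over the second (CPM + 0.1) for 15 gene pairs in each of the 5 BAT WT libraries (brown), iWAT WT libraries 1 to 3 (filled blue) and iWAT WT libraries 4 and 5 (open blue). The BAT and iWAT points lie 8.18 apart in the mean for Cpt1b / Cpt1a and 8.32 apart for Cidea / Cidec, and of the 15 pairs the depots overlap only for Slc25a4 / Slc25a5, Atp2a1 / Atp2a2, Ppargc1a / Ppargc1b and Scd1 / Scd2.

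Genes of fatty acid synthesis differed in both directions. Of 21 genes of fatty acid synthesis and elongation, 11 were higher in BAT, 2 were higher in iWAT and 8 were not called; the median was 0.60, which turns to -0.13 with library totals (8 higher in BAT and 5 in iWAT). Fasn, fatty acid synthase, had 27589, 30406, 16774, 28270.1 and 17153 CPM in BAT and 5758, 3910.2, 3421, 5132 and 2585 CPM in iWAT (2.53 ± 0.27), BAT 3 and BAT 5 being the lowest BAT libraries. Acly, which makes cytosolic acetyl-CoA, had 6169, 5057, 2321, 4474 and 2412 CPM in BAT and 748, 420.3, 306, 434 and 303 CPM in iWAT (3.21 ± 0.37), and again BAT 3 and BAT 5 were the lowest of the BAT libraries. Elovl6 (4.31 ± 0.30), Acacb (3.03), Acaca (2.44) and Mlxipl, which encodes the glucose-responsive factor ChREBP (3.07 ± 0.15), were also higher in BAT. Scd1, the main stearoyl-CoA desaturase, had 87281, 92581, 73961, 91066 and 77526 CPM in BAT and 77067, 78111, 72292, 57069 and 33889.5 CPM in iWAT, and the depots overlapped (0.41 ± 0.23, adjusted p = 0.14). The 2 genes higher in iWAT were the desaturase Fads1 (-1.93) and the elongase Elovl1 (-1.43). Scd1 has close copies in 1 cluster, and reads may be divided between them.

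In triglyceride synthesis 12 of 15 genes were higher in BAT and 1 in iWAT, with a median of 1.21; 8 were higher in BAT and 3 in iWAT with library totals. Gk, glycerol kinase, had 193, 232, 451, 149 and 446 CPM in BAT and 8.54, 8.89, 8.23, 9.97 and 8.59 CPM in iWAT (5.05 ± 0.35). Gpd2, the mitochondrial glycerol 3-phosphate dehydrogenase, differed by 4.88 ± 0.14 and the cytosolic Gpd1 by 3.77, whereas Pck1 (1.21 ± 0.20) and Dgat1 (0.77 ± 0.11) differed less. With library totals Pck1 (0.49, adjusted p = 0.025) and Dgat1 (0.03, adjusted p = 0.77) were not called, and Dgat1 was not called with all 40 fat libraries (adjusted p = 0.017). Mogat1, of the monoacylglycerol route, was higher in iWAT (-1.12). Of 21 lipid droplet and lipolysis genes, 9 were higher in BAT and 1 in iWAT, with a median of 0.42 that turns to -0.30 with library totals (6 higher in BAT and 4 in iWAT). Plin5, which ties droplets to mitochondria, was higher in BAT (4.78 ± 0.13). Pnpla2, adipose triglyceride lipase, differed by 0.86 ± 0.17 and by 0.14 with library totals, where it was not called. Lipe, hormone-sensitive lipase (0.53, adjusted p = 0.013), Cidec (-0.64, adjusted p = 0.011) and Lpl, lipoprotein lipase (-0.63, adjusted p = 0.021), did not pass. Each passed without iWAT 4 and 5, at 0.33, -0.85 and -0.88 (adjusted p = 0.0047, 6.4e-05 and 4.7e-04), so the latter 2 were then higher in iWAT. Leaving out iWAT 5 alone had the same effect, at 0.39, -0.79 and -0.76. With no library left out, each also passed by DESeq2 (adjusted p = 0.0031, 0.00165 and 0.00499) and with the muscle score as covariate.

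Genes that every adipocyte uses were also compared. Of 20 general adipocyte genes, 11 were higher in BAT, 2 were higher in iWAT and 7 were not called, a share near the 56.9% called of all tested genes, with a median of 0.58 that turns to -0.15 with library totals (4 higher in BAT and 7 in iWAT). Fabp4 had 8509, 8351, 8601, 9007 and 9215 CPM in BAT and 7256, 8829, 7859.6, 6035 and 4136 CPM in iWAT and was not called (0.36, adjusted p = 0.10). iWAT 4 and 5 held the lowest values, and the depot difference was 0.10 without them. Adipoq, which encodes adiponectin, had 819, 809, 992, 980.3 and 1076 CPM in BAT and 2239, 2325, 2356, 1451 and 1096 CPM in iWAT and was higher in iWAT (-1.02 ± 0.21), by -1.33 without iWAT 4 and 5.

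Genes of glucose uptake and breakdown were mostly higher in BAT. Of 33 genes of glycolysis and glucose uptake, 21 were higher in BAT and 6 in iWAT, with a median of 1.52 (2.10 without iWAT 4 and 5). Pdk4, the kinase that holds pyruvate dehydrogenase inactive, had 5000.4, 6269, 5230.3, 5168 and 4171 CPM in BAT and 128, 174, 135, 141 and 248 CPM in iWAT (4.97 ± 0.23). Ldhb (4.12 ± 0.11) exceeded Ldha (1.52 ± 0.10) in its depot difference, and Hk2 (2.36 ± 0.10) exceeded Hk1 (0.87 ± 0.13), which was not called with library totals (0.13). Slc2a4, the insulin-responsive glucose transporter, was higher in BAT (1.98), whereas Slc2a1 (-1.06) and Slc2a3 (-2.32) were higher in iWAT and are among the genes that vary with the lymph node score. In branched-chain amino acid breakdown 19 of 21 genes were higher in BAT, with a median of 1.26. Bckdha of the branched-chain dehydrogenase had 660.0 to 765 CPM in BAT and 91.9 to 152 CPM in iWAT (2.49 ± 0.13), and the mitochondrial carrier Slc25a44 differed by 1.49. The transaminases of the same route did not follow. Bcat2 was not called (-0.23), except higher in iWAT without linked genes (-0.39) and with library totals (-0.97), and Bcat1 was higher in iWAT (-2.55).

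Carriers of the inner mitochondrial membrane gave 20 of 25 genes higher in BAT and 5 higher in iWAT, with a median of 1.74. Among relatives of Ucp1, Ucp3 had 197, 189, 221, 197 and 292 CPM in BAT and 29.2, 30.1, 28.7, 37.7 and 50.5 CPM in iWAT (2.64 ± 0.19), whereas Ucp2 had 55.2, 48.8, 51.0, 50.5 and 49.4 CPM in BAT and 136, 128, 151, 203 and 227 CPM in iWAT (-1.73 ± 0.16). Ucp2 varies with the lymph node score across the other iWAT libraries, and it was still higher in iWAT without iWAT 4 and 5 (-1.47). The ADP/ATP carriers Slc25a4 (1.00 ± 0.20) and Slc25a5 (1.33 ± 0.07) were higher in BAT. Slc25a4 was not called with library totals (0.23, adjusted p = 0.38), and iWAT 5, with the highest muscle score, held 336 CPM of it against at most 170.1 CPM in the other iWAT libraries. The dicarboxylate carrier Slc25a10 was higher in iWAT (-3.10). Genes of creatine and calcium cycling, routes of heat production proposed for cells without UCP1, were split, with 4 of 15 higher in BAT, 4 in iWAT and a median of -1.76 that becomes 0.67 without iWAT 4 and 5; 3 were higher in BAT and 7 in iWAT with library totals. Alpl (2.37), Ryr2 (2.20 ± 0.38, and 2.84 without iWAT 4 and 5), Atp2a2 (1.04 ± 0.08) and Slc6a8, the creatine transporter (0.85), were higher in BAT, though Slc6a8 was not called with library totals (0.12). Gatm (-1.76 ± 0.25) and Gamt (-1.73), which make creatine, were higher in iWAT. Ckmt2, the mitochondrial creatine kinase, had 0.691, 0.501, 1.79, 1.24 and 0.277 CPM in BAT and 0.191, 0.0664, 0.185, 4.77 and 101 CPM in iWAT. iWAT 5, with the highest muscle score, thus stood apart, and the difference of -4.57 turned to 2.52 (adjusted p = 0.0043) without iWAT 4 and 5. Atp2a1, the fast muscle calcium pump, had 8.25, 10.6, 32.9, 33.6 and 5.89 CPM in BAT and 3.37, 2.70, 11.4, 161 and 2051 CPM in iWAT and followed the same libraries. Ckb was not called (-0.29, adjusted p = 0.21) and was called higher in iWAT without iWAT 4 and 5 (-0.54, adjusted p = 0.0090).

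Receptors of noradrenaline differed by type. Of 30 adrenergic and cAMP genes, 16 were higher in BAT, 5 were higher in iWAT and 9 were not called, with a median of 0.73 (0.00 with library totals, 14 higher in BAT and 11 in iWAT). Adrb1, the beta1 receptor, had 14.9, 27.9, 16.4, 18.4 and 12.8 CPM in BAT and 1.84, 3.89, 1.91, 1.60 and 0.865 CPM in iWAT (3.16 ± 0.38), and Adra1a, an alpha1 receptor, had 84.9 to 121 CPM in BAT and 5.92 to 16.8 CPM in iWAT (3.08 ± 0.26). Adrb3, the receptor targeted by drugs that activate brown fat, had 343, 545, 517, 541 and 366 CPM in BAT and 471, 661, 599, 440.0 and 215 CPM in iWAT, and the depots overlapped (-0.05 ± 0.27, adjusted p = 0.89). Adra2a, which inhibits cAMP formation, was higher in iWAT (-3.68 ± 0.27), and by -3.53 without iWAT 4 and 5. Among the enzymes that make cAMP, Adcy3 (2.57 ± 0.24) and Adcy10 (3.01 ± 0.32) were higher in BAT and Adcy5 in iWAT (-3.41). The G protein subunit Gnas (2.55), the kinase subunit Prkaca (1.62) and its mitochondrial anchor Akap1 (3.13) were higher in BAT.

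Regulators of mitochondrial genes were higher in BAT or not called. Of 24 listed regulators, 15 were higher in BAT, none in iWAT and 9 were not called, with a median of 1.13; with library totals 8 were called higher in BAT and 7 in iWAT. Ppara, the receptor that drives fatty acid oxidation genes, had 730.4, 639.8, 681, 692 and 707 CPM in BAT and 8.92, 11.7, 9.24, 19.0 and 15.8 CPM in iWAT (5.74 ± 0.24). The coactivator Ppargc1b had 74.1, 80.4, 109.9, 98.4 and 88.7 CPM in BAT and 2.88, 1.95, 1.81, 6.67 and 5.83 CPM in iWAT (4.55 ± 0.40, and 5.32 without iWAT 4 and 5), and Ppargc1a had 60.2, 42.0, 126, 64.5 and 209 CPM in BAT and 7.12, 8.72, 6.81, 7.21 and 12.0 CPM in iWAT (3.58 ± 0.44). Ppargc1a varied more among BAT libraries, with BAT 3 and BAT 5 the highest, the libraries that were also highest for Dio2 and Gk. Among estrogen-related receptors, Esrrg differed by 4.59 ± 0.39 and Esrra by 2.73 ± 0.12. Tfam, which packages mitochondrial DNA, differed by 1.22. In nuclear receptor signalling 9 of 19 genes were higher in BAT and 4 in iWAT, with a median of 0.65, which turns to -0.06 with library totals (7 higher in BAT and 5 in iWAT). The thyroid hormone receptor Thrb was higher in BAT (1.40 ± 0.29), a call that was lost with library totals (0.65, adjusted p = 0.065).

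Few receptors for insulin and FGF hormones were called. Of 17 genes, 4 were higher in BAT, 3 were higher in iWAT and 10 were not called, with a median of 0.21 that turns to -0.53 with library totals (0 higher in BAT and 9 in iWAT). Without iWAT 4 and 5, 2 were higher in BAT and 5 in iWAT. Fgfr1, the FGF receptor through which FGF21 acts, had 91.0, 94.3, 108, 97.0 and 78.1 CPM in BAT and 290.2, 268, 282, 173 and 119 CPM in iWAT (-1.28 ± 0.23). Klb, its obligate partner for FGF21, had 67.0, 54.7, 59.0, 58.0 and 60.4 CPM in BAT and 73.3, 57.8, 53.5, 46.6 and 26.0 CPM in iWAT and was not called (0.22, adjusted p = 0.39). Fgf21 itself was near the limit of detection in WT fat, with 7 to 10 reads per library in BAT and 2 to 11 in iWAT, and did not pass the low-count filter.

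Secreted factors were mostly higher in iWAT, 25 of 37 against 6 higher in BAT, with a median of -1.93. Retnla had 27.7, 14.9, 17.9, 21.9 and 12.2 CPM in BAT and 788, 343, 516, 219 and 150.2 CPM in iWAT (-4.41 ± 0.48). Cfd, which encodes the adipokine adipsin, had 246 to 1157 CPM in BAT and 3659 to 6143 CPM in iWAT (-2.66 ± 0.40). Igf1 (-3.06 ± 0.29), Rbp4 (-1.56 ± 0.20) and Sfrp5, a Wnt antagonist (-2.82 ± 0.65, and -3.42 without iWAT 4 and 5), were also higher in iWAT. For Sfrp5, iWAT 1 to 3 held 17.9 to 22.7 CPM and iWAT 4 and 5 held 4.27 and 3.23 CPM. The 6 genes higher in BAT were Ptgds (5.85, and 7.04 without iWAT 4 and 5), Bmp8b (at least 16.7-fold), Nampt (2.05), Nrg4 (1.36 ± 0.17), a ligand released by brown fat, Vegfa (1.25 ± 0.13) and Vegfb (0.91), which was not called with library totals (0.19).

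Matrix and stromal genes marked iWAT. Of 18 collagen genes, 13 were higher in iWAT and 2 in BAT, with a median of -2.27. Col3a1 had 366, 320.0, 399.5, 589.5 and 392 CPM in BAT and 3983, 3167, 4229, 2449 and 2572 CPM in iWAT (-2.99 ± 0.22). Col1a1 (-3.05 ± 0.25) and Col6a3 (-2.13 ± 0.15) were higher in iWAT, while the basement membrane gene Col4a1 did not pass (-0.82, adjusted p = 0.010) and passed without iWAT 4 and 5 (-1.17), without iWAT 4 alone (-0.91) and without iWAT 5 alone (-0.99). Col27a1 (3.10) and Col12a1 (1.60) were higher in BAT. Of 26 other matrix genes, 22 were higher in iWAT and none in BAT, with a median of -2.19, for example Fbn1 (-3.04 ± 0.30), Mmp2 (-2.65 ± 0.21) and Fn1 (-3.92). Of 22 markers of adipose progenitors, 17 were higher in iWAT and 2 in BAT. Pi16 had 75.4, 37.0, 32.4, 36.8 and 23.6 CPM in BAT and 851, 241, 435, 197 and 159 CPM in iWAT (-3.20 ± 0.52) and Dpp4 differed by -4.14 ± 0.38, both markers of progenitors in the interstitium between adipocyte lobules. Pdgfra, a general marker of these cells, differed less (-1.99 ± 0.13). Dlk1 (Pref-1), also a progenitor marker, went the other way, with 14.8, 15.2, 13.9, 9.32 and 8.04 CPM in BAT and 1.21, 0.929, 1.13, 0.881 and 0.545 CPM in iWAT (3.70 ± 0.27).

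Markers of other cells differed in kind. All 16 macrophage markers were higher in iWAT, with a median of -2.92 (-2.97 without iWAT 4 and 5). Their summed level was 235 to 274 CPM in BAT, 1395 to 2421 CPM in iWAT 1 to 3 and 1632 to 2124 CPM in iWAT 4 and 5. Csf1r, the receptor for the macrophage growth factor, had 28.5, 24.0, 24.6, 31.8 and 22.9 CPM in BAT and 283, 175, 246, 191 and 203 CPM in iWAT (-3.06 ± 0.15). None of the 16 was linked to the lymph node score by the rule used here. Of 15 endothelial markers, 2 were higher in BAT and 2 in iWAT, with a median of 0.02. Without iWAT 4 and 5, 3 were higher in BAT and 6 in iWAT (median -0.29), and with library totals 2 and 8 (median -0.69). Kdr (1.14 ± 0.13) and Flt1 (1.18), receptors of VEGFA, were higher in BAT, and Lyve1, of lymphatic vessels and some macrophages, was higher in iWAT (-3.45). Pericyte and smooth muscle markers gave 3 of 12 higher in BAT and 4 in iWAT, Schwann and nerve markers 1 of 9 and 2, epithelial markers 0 of 6 and 3, erythroid markers 0 of 3 and 0, and liver markers 0 of 8 and 3. Without iWAT 4 and 5 the counts were 5 and 5 for pericyte and 1 and 5 for Schwann markers, and with library totals 1 and 6, and 1 and 5. S100b, counted among the Schwann cell markers but also made by adipocytes, was the 1 higher in BAT (4.76).

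All 20 lymph node markers were called higher in iWAT, with a median of -5.98, a size that rested on iWAT 4 and 5. Cd79a, a B cell receptor component, had 1.16, 0.626, 0.582, 0.660 and 1.04 CPM in BAT and 1.38, 2.50, 4.73, 128 and 155 CPM in iWAT. Without iWAT 4 and 5, 16 of 18 tested markers were still called higher in iWAT but with a median of -1.81, and Cd79a differed by -1.83 instead of -6.15. Its adjusted p was 0.0036 with all libraries and between 0.010 and 0.011 when any 1 BAT library was left out, and 0.063 with voom. None of 20 muscle markers was called in the 10 libraries, with a median of -4.28, and 4 were higher in BAT without iWAT 4 and 5, with a median of 1.28. Ckm, muscle creatine kinase, had 4.94, 4.71, 15.4, 14.1 and 2.94 CPM in BAT and 1.72, 1.64, 6.73, 70.5 and 805 CPM in iWAT. Over the 15 iWAT libraries of the other genotypes, 4143 tested genes varied with the lymph node score and 206 with the muscle score (r of at least 0.8). Among those linked to the lymph node score 1770 were called higher in iWAT and 219 higher in BAT. The 11822 tested genes linked to neither gave 2989 calls toward iWAT and 4206 toward BAT, with 2147 and 2060 of at least 2-fold. Toward iWAT, 1304 of the 3470 genes of at least 2-fold were thus linked to the lymph node score.

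**Figure D4:**
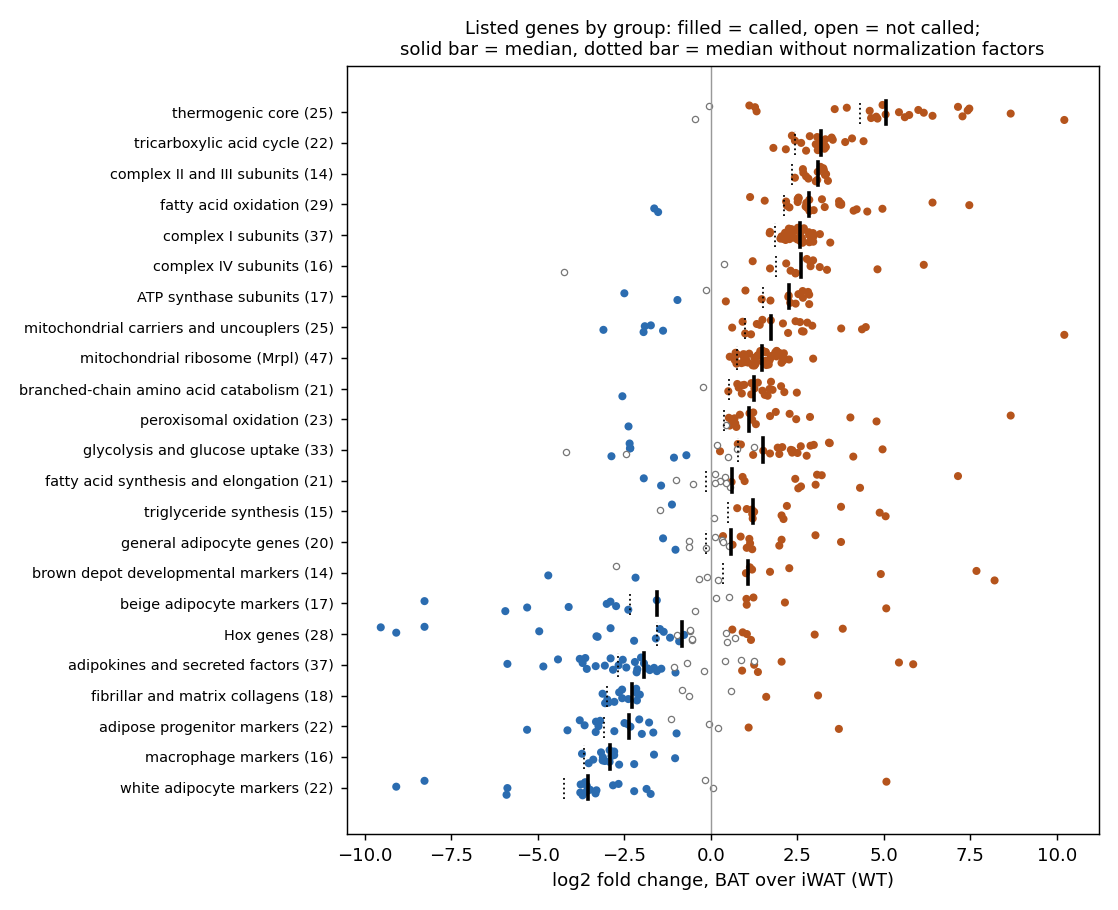
Log2 fold change (BAT over iWAT, WT) of each tested gene of 23 gene groups, with the number tested in brackets, filled when called (brown toward BAT, blue toward iWAT) and open when not. Solid bars are medians with TMM factors and dotted bars medians with library totals, which lie about 0.7 lower, and the groups run from the thermogenic core (median 5.05) to the white adipocyte markers (-3.53).

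Among genes not linked to lymph node or muscle and with a level of at least 1 CPM in the higher depot, the largest difference toward BAT was that of Lgr6, a receptor for R-spondins, with 116, 130.2, 121, 92.6 and 119 CPM in BAT and 0.0636, 0.0885, 0.123, 0.0665 and 0.113 CPM in iWAT (10.27 ± 0.17). It exceeded Ucp1 in log2 fold change but by less than the standard error of Ucp1. Kng2, a kininogen gene, followed (8.96 ± 0.31), and after it Slc27a2 (8.67 ± 0.43), Cpn2 (8.31 ± 0.41), Atp4b (at least 62.0-fold) and Zic1. Atp4b was not called with voom (adjusted p = 0.023) or with the lymph node score as covariate (adjusted p = 0.040). A further 3 of the 10 entries toward BAT carry only clone names and are left out. Kng2 has a close paralog, so its counts may be shared with it. Toward iWAT the 10 were Hoxa10, Hoxc10, Hoxc9, Topaz1 (at least 8.93-fold), Mrgprg (at least 34.2-fold), Bpifb6 (at least 36.9-fold), Ccdc42 (at least 10.4-fold), Klf14 (at least 17.2-fold), Emx2 and Pla2g5 (at least 22.4-fold). Klf14, an imprinted regulator of adipocyte genes, had 0, 0, 0, 0 and 0.0693 CPM in BAT and 2.76, 2.88, 3.09, 0.781 and 0.451 CPM in iWAT, so iWAT 4 and 5 were the lowest iWAT libraries. All 10 lay below 0.1 CPM in every BAT library. By difference in CPM, the leading genes toward iWAT were Gsn, which encodes gelsolin (1124 to 1953 CPM in BAT and 5782 to 12137 CPM in iWAT), Car3, carbonic anhydrase 3 (1888 to 3676 and 5734 to 10147 CPM), Cfd, Sparc (1189 to 1453 and 2064 to 5399 CPM) and Col3a1. Among the 5 called genes with the largest difference toward BAT, Fasn was the 1 with a gene name; Scd1, which was not called, is not among them.

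The depot difference was repeated in FGF21 KO mice. Fgf21 itself had 7 to 10 reads per WT BAT library and 0 to 2 in FGF21 KO BAT, 2 to 11 in WT iWAT and 0 to 1 in FGF21 KO iWAT. Of 16746 genes tested in these mice, 10165 (60.7%) were called, 4428 (26.4%) higher in BAT and 5737 (34.3%) in iWAT. Of the 9204 genes called in WT, 9165 were tested again, 9126 (99.6%) had the same direction, 7984 were called in the same direction and 0 in the opposite one. The shared calls were 86.7% of the WT list and 78.5% of the FGF21 KO list. Of the 5569 genes at least 2-fold apart in WT, 5154 (92.5%) were called again in the same direction. Ucp1 differed by 11.10, Cpt1b by 7.43, Hoxc10 by -8.33 and Atp5g1 by -2.42 in FGF21 KO mice. Adipoq, higher in iWAT in WT, was not called in FGF21 KO (-0.38, adjusted p = 0.26), and Fabp4, not called in WT, was higher in BAT (1.32, adjusted p = 0.0048). The difference between the genotypes was itself not called for either gene (adjusted p = 0.42 and 0.40). Lymph node scores were above 4 in 4 of the 5 FGF21 KO iWAT libraries, against 2 of the 5 in WT.

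**Figure D5:**
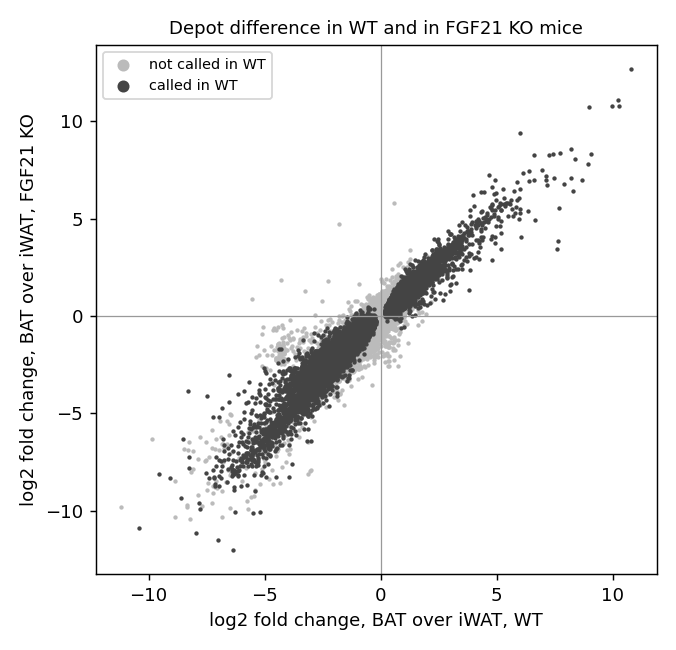
Log2 fold change BAT over iWAT in WT (horizontal) and in FGF21 KO mice (vertical) for genes tested in both, dark when called in WT and grey when not. The dark points lie in the lower left and upper right quadrants for 9126 of 9165 genes.

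Whether the depot difference itself changed with the loss of FGF21 was tested as the interaction of depot and genotype over all 20 libraries. Of 17021 genes, 0 were called by edgeR at an adjusted p under 0.01 (0%), 2067 had an unadjusted p under 0.05, and the smallest adjusted p was 0.28. DESeq2 called 4 genes, with a WT minus FGF21 KO difference of 0.89 for Impdh1, -1.22 for Rcan2, -1.25 for Crnde and -1.66 for Twist2. Without FGF21 KO iWAT 2, the 1 library of that group with a low lymph node score, edgeR called 501 genes, and without FGF21 KO BAT 5 it called 1. The other 4 FGF21 KO iWAT libraries had a high lymph node score, and the part of lymph node in the 501 calls was not tested.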

How the data were processed

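RNA from BAT and iWAT was sequenced as poly(A)-selected, strand-specific libraries. Per the labels and methods, the authors aligned reads to mm10 with STAR and counted them on UCSC known genes with HTSeq, and the deposited values are raw counts of reads per gene. Whether strand was used in counting is not given in the sources used here. A row that names no gene was left out and held at most 2.42e-05% of reads.

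Libraries were grouped by the tissue and genotype labels and numbered in accession order. Genes with a maximum count above 15, a sum above 75 and at most 10 libraries at 0 were tested with edgeR 4.0.16 (R 4.3.3) by the quasi-likelihood test with TMM factors and Benjamini-Hochberg adjustment, and were called at an adjusted p under 0.01. The same test was used in FGF21 KO mice and for the interaction. The study's methods used DESeq2 at this threshold with these filter settings; the limit on libraries at 0 removes no gene from a comparison of 10 libraries. DESeq2 1.42.0 was an alternative, as were limma 3.58.1 (voom), RLE factors, other filters, all 40 fat libraries, marker scores as covariates and leaving out libraries. Adjusted p-values in the text are edgeR's unless another test is named. Depth was 30298956 to 44683908 counted reads per library. Standard errors are the log2 fold change divided by the square root of F. Scores and pairs used log2(CPM + 0.1) and exact permutation tests (scipy 1.17.1). Folds against a depot at or under 3 counts per library are bounds. The fits were also run on simulated data, and no result of that run is given here. The effect of the scaling and of lymph node and muscle in iWAT libraries is therefore not judged from it.

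Genes named were the leading genes of each list, the gene pairs, the 10 largest differences in each direction among genes that were called, did not overlap between depots, reached 1 CPM and were not linked to lymph node or muscle, and the 5 largest differences in mean CPM. Entries known only by clone or uncharacterised names were not printed. Other list members were named after their values were seen. Genes linked to lymph node had r of at least 0.8 with the lymph node score over 15 iWAT libraries of other genotypes, and those linked to muscle also had a muscle level at least 10 times that of BAT. The comparison, lists and tests were chosen with earlier results of these data known. A few genes are not reported here.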

Additional observations from a re-analysis of the deposited data

Results flagged for a closer look

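Of 440 checks of a gene or score in the 5 libraries of a depot, 46 had a highest or lowest library set apart from the other 4 by a gap over 0.71 of the group's range. In 16 checks no library held more than 3 reads, so that 1 read can set a library apart, and 5 of the 46 were among these. Of the other 424 checks, 41 were set apart, where chance alone gives about 1 in 20, or 21.2. In iWAT 5 the erythroid marker score was lowest, 1.28 against a next value of 2.22 and the liver marker score was also lowest, 1.36 against 2.21.

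BAT 1 was set apart as the highest BAT library for Dpp4 (8.47 CPM, next 4.74 CPM), Hoxa10 (0.0364 CPM, next 0 CPM), Pi16 (75.4 CPM, next 37.0 CPM) and Prrx1 (22.1 CPM, next 14.9 CPM). BAT 1 was set apart as the lowest BAT library for Bckdha (660.0 CPM, next 739 CPM), Cox8a (703 CPM, next 766 CPM) and Ehhadh (319.9 CPM, next 547 CPM). BAT 2 was set apart as the highest BAT library for Hk1 (96.5 CPM, next 69.5 CPM) and Uqcrc1 (1887 CPM, next 1773 CPM). BAT 3 was set apart as the lowest BAT library for Atp5g3 (189.9 CPM, next 209 CPM). BAT 4 was set apart as the highest BAT library for Meox2 (25.5 CPM, next 22.4 CPM) and Twist2 (1.05 CPM, next 0.836 CPM). BAT 4 was set apart as the lowest BAT library for Cox7a1 (462 CPM, next 565 CPM), Gnas (3037 CPM, next 3837 CPM) and Sucla2 (1981 CPM, next 2278 CPM). BAT 5 was set apart as the highest BAT library for Atp5g2 (133 CPM, next 126 CPM), Ccdc42 (0.0346 CPM, next 0 CPM), Ebf2 (141 CPM, next 93.0 CPM), Klf14 (0.0693 CPM, next 0 CPM) and Slc2a3 (3.08 CPM, next 2.71 CPM). BAT 5 was set apart as the lowest BAT library for Bpifb6 (0 CPM, next 0.0364 CPM) and Prkaca (405 CPM, next 443 CPM). iWAT 1 was set apart as the highest iWAT library for Emx2 (7.78 CPM, next 3.91 CPM) and Zic4 (0.0212 CPM, next 0 CPM). iWAT 2 was set apart as the highest iWAT library for Ntrk3 (17.1 CPM, next 6.77 CPM). iWAT 2 was set apart as the lowest iWAT library for Mrgprg (1.81 CPM, next 4.11 CPM). iWAT 4 was set apart as the highest iWAT library for Cidea (35.1 CPM, next 14.8 CPM), Slc27a2 (1.36 CPM, next 0.686 CPM) and Thrb (51.1 CPM, next 31.6 CPM). iWAT 5 was set apart as the highest iWAT library for Atp2a1 (2051 CPM, next 161 CPM), Atp5g1 (49.8 CPM, next 29.6 CPM), Ckm (805 CPM, next 70.5 CPM), Ckmt2 (101 CPM, next 4.77 CPM), Cox6a2 (26.1 CPM, next 2.73 CPM), Cox7a1 (19.1 CPM, next 7.86 CPM), Esrra (27.2 CPM, next 21.5 CPM), Fabp3 (39.0 CPM, next 4.09 CPM) and Slc25a4 (336 CPM, next 170.1 CPM). iWAT 5 was set apart as the lowest iWAT library for Ccdc42 (0.639 CPM, next 1.25 CPM), Dgat1 (147 CPM, next 184 CPM), Hoxc9 (4.0 CPM, next 5.87 CPM), Ndufa11 (29.3 CPM, next 34.4 CPM), Slc25a10 (219 CPM, next 331 CPM) and Slc2a4 (121 CPM, next 157 CPM). iWAT 5 also had the highest muscle score, 8.32, and lymph node score, 6.25, and their part in these values was not tested.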

How the results depend on the processing

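The number of genes called in WT stayed within 1.5 times the main 9204 under every alternative, from 7385 without the linked genes (7651 with the filter applied in each depot) to 11817 without normalization factors, with 10094 by DESeq2 and 8204 to 9485 when a library was left out. Without factors, an alternative chosen after seeing the data, 1707 genes were higher in BAT and 10110 in iWAT. In FGF21 KO mice DESeq2 called 11133 genes and leaving out a library gave 9085 to 11949. The interaction gave 4 genes by DESeq2 and 0 to 501 when a library was left out. With iWAT 1 to 3 alone, also chosen after seeing the data for scores and pairs, the muscle score difference was 1.26, Atp2a1 over Atp2a2 0.63, Scd1 over Scd2 0.0098 and Ppargc1a over Ppargc1b -1.83. With a pseudocount of 1, Elovl3 over Elovl6 fell from 2.51 to 1.15.

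Of 201 tested genes named, 169 were tested under all 20 alternatives listed for the WT comparison and 149 of these kept direction and call in each. The other 32 were left out of at least 1 of these fits, and 26 of them kept direction and call where they were tested. With voom, the log2 fold change turned to 0.022 for Adrb3. With iWAT 1 to 3 alone, the log2 fold change turned to 1.61 for Atp2a1, 1.28 for Ckm, 2.52 for Ckmt2 and -0.071 for Klb. With the lymph node score as covariate, the log2 fold change turned to 3.90 for Atp2a1, 3.45 for Ckm, 5.14 for Ckmt2, 3.55 for Cox6a2, -0.046 for Fabp4, -0.27 for Klb, -0.069 for Scd1 and -0.11 for Scd2. With the muscle score as covariate, the log2 fold change turned to 0.064 for Atp2a1 and 0.81 for Ckmt2. Without factors, the log2 fold change turned to -0.33 for Cox4i2, -0.16 for Crnde, -0.36 for Fabp4, -0.098 for Hoxb4, -0.50 for Klb, -0.20 for Lipe, -0.31 for Scd1 and -0.28 for Scd2. Leaving out a library gave -0.24 to 0.073 for Adrb3. Without factors the calls toward BAT were also lost for Dgat1 (0.033), Ebf2 (0.42), Hk1 (0.13), Hoxa2 (0.20), Hoxc4 (0.32), Hoxc5 (0.45), Pck1 (0.49), Pnpla2 (0.14), Pparg (0.40), Prdm16 (0.60), Slc25a4 (0.23), Slc6a8 (0.12), Thrb (0.65) and Vegfb (0.19). The cause of these changes was not tested. Among the calls lost were those of Dio2 and Atp4b with voom (adjusted p = 0.022 and 0.023), of Pparg, Ebf2, Pnpla2, Atp4b and Hoxa2 with the lymph node covariate, and of Dgat1 with all 40 libraries. Hoxb4 lost its call in 13 of the 20 alternatives.

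No paired analysis was possible because the labels give no replicate or animal numbers. Counts of a few reads limit the bounds given for genes absent from a depot. Lymph node and muscle markers were high in iWAT 4 and 5, and their part in genes that fat also expresses was not tested.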
